A study of Drosophila melanogaster with 3 samples.

Results

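The Antennapedia complex holds 5 Hox genes, lab, pb, Dfd, Scr and Antp, on the right arm of chromosome 3. They were studied with the interval chr3R:6641427-7019228 of the assembly dm6 (Release 6), which runs from lab to Antp with 20 kb on each side. The non-Hox genes bcd, zen and ftz lie in it and were left out, each with 500 bp around its start sites, so that 369 kb of the 378 kb were counted. In that sequence lay 21 of the 5190 peak summits of the final list for Lhr-eGFP. The relaxed lists are longer. The combined list had 63 of its 20761 summits there, replicate 1 had 66 of 22598, replicate 2 had 94 of 30000 and replicate 3 had 51 of 18934. The members are named by gene and position, and no measured value was used to choose them.

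The study mapped Lhr, a chromatin protein known to act with Hmr and heterochromatin protein 1, by chromatin immunoprecipitation and sequencing in Drosophila melanogaster. Mixed-sex whole embryos aged 0 to 14 hours were used, from a stable transgenic line in which Lhr carries GFP at its C terminus. Chromatin was sonicated to 200 to 800 bp and recovered with an antibody against GFP, in 3 biological replicates of 1 group. What drives the transgene, the state of the endogenous Lhr gene and the strain background are not stated in the sources used here, and the control library is not analysed here. All 3 libraries carry the transgene, and there is no second condition. In whole embryos, fewer cells with the protein at a place and less protein there per cell cannot be told apart. The files hold peak lists with no read counts, so the depth is unknown and no interval for a single peak can be given. The authors obtained the final list, called the IDR list here, with a threshold on the irreproducible discovery rate, which scores whether a peak ranks alike in the replicates. A signal value is the authors' enrichment value for a peak. It ranks peaks within a list, and rank 1 is the strongest. To set libraries side by side, a rank was also written as a percentile from the top of the list, where a value near 0 is among the strongest. The lists differ in length, so the same rank gives a higher percentile in a shorter list.

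Hox genes encode homeodomain transcription factors that give the body segments their identity along the head to tail axis, and their order on the chromosome follows the order of the segments they specify. The Antennapedia complex covers the head and the anterior thorax, and the bithorax complex covers the posterior thorax and the abdomen. Hox genes have large introns and long intergenic regulatory sequences, and are textbook targets of Polycomb repression and trithorax activation. Labial (lab) acts in the intercalary segment of the head and in the midgut. Proboscipedia (pb) specifies the adult mouthparts, Deformed (Dfd) the mandibular and maxillary segments, Sex combs reduced (Scr) the labial segment, the prothorax and the salivary glands, and Antennapedia (Antp) the thorax. On dm6, lab (FBgn0002522) spans 17.2 kb at chr3R:6661427-6678590, pb (FBgn0051481) 34.3 kb at chr3R:6707800-6742063, Dfd (FBgn0000439) 10.6 kb at chr3R:6791836-6802428, Scr (FBgn0003339) 26.9 kb at chr3R:6823120-6849981 and Antp (FBgn0260642) 103 kb at chr3R:6896253-6999228. All lie on the minus strand except Dfd. A second protein-coding gene, CG46458, is annotated within Antp on the same strand, so a summit in the shared stretch is in both.

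The sequence under the strongest IDR summit of each stretch from lab to Antp is shown because these are the places in the complex where the protein was called most strongly. Each window is 201 bp centred on the summit, on the plus strand of dm6, 5′ to 3′, from the RefSeq genome sequence of that assembly. Windows that touch an annotated UTR were passed over for the next summit by rank, which moved the choice to another summit between pb and Dfd and in Antp. Dfd and Scr have no IDR summit. Capitals mark exact matches, on either strand, to the 9 words whose shares are given at the end of the results.
lab intron, chr3R:6665376-6665576: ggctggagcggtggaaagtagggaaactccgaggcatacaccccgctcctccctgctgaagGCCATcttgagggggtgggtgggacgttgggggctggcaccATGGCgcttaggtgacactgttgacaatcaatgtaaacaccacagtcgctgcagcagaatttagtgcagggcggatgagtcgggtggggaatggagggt
between lab and pb, chr3R:6706416-6706616: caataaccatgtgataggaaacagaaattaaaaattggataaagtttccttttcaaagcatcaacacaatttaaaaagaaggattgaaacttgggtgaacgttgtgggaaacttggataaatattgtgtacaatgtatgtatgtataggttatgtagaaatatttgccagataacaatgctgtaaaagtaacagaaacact
pb intron, chr3R:6708950-6709150: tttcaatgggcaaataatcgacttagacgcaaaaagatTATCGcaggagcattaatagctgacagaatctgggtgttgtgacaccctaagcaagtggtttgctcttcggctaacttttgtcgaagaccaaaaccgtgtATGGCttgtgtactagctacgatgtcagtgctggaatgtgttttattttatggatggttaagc
between pb and Dfd, chr3R:6763016-6763216: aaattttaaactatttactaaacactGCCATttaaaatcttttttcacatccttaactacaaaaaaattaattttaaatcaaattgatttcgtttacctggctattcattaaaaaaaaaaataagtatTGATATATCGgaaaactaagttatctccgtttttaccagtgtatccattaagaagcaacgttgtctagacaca
between Dfd and Scr, chr3R:6806794-6806994: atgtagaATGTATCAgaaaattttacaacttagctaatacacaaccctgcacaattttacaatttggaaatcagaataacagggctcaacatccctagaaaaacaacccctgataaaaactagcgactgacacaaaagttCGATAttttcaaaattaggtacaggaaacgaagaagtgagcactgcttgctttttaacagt
between Scr and Antp, chr3R:6881711-6881911: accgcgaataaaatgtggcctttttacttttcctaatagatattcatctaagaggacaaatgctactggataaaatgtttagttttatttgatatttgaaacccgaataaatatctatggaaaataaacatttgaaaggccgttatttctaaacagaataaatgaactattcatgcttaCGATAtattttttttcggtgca
Antp intron, chr3R:6912253-6912453: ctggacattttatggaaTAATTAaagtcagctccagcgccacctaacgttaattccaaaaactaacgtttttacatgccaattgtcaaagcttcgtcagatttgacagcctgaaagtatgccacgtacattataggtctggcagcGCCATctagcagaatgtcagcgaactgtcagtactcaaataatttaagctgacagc

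The 7 windows differ in base composition. G and C made up 59.2% of the window in lab, 41.8% in pb and 41.3% in Antp, and the 4 windows between Hox genes ran from 25.4% to 34.8%.

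The opening question was whether the Hox genes carry Lhr-eGFP at their start sites. None did in the IDR list: 0 of 5 had a summit at 500 bp or less from an annotated start site, where 29.2% of the 13968 protein-coding genes had one. The 5 genes were instead 1141 bp (lab), 17614 bp (pb), 11594 bp (Dfd), 21033 bp (Scr) and 3483 bp (Antp) from their nearest IDR summit. Their median distance was 11594 bp in this list, against 4671 bp over all protein-coding genes. The relaxed lists did not all share that direction: the medians were 512 bp for the Hox genes against 887 bp for all protein-coding genes in the combined list, 1113 against 1072 bp in replicate 1, 429 against 328 bp in replicate 2 and 472 against 876.5 bp in replicate 3. In each case the nearest IDR summit lay upstream of the start site in question. For pb that summit is at the start of bcd, which was left out of the counts.

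The relaxed lists placed weaker summits at some of these start sites, and the libraries differed in which. Replicate 1 had one this near to Antp only (1 of 5, against 42.6% of all protein-coding genes). Replicate 2 had lab, pb and Dfd (3 of 5, against 54.5%), and replicate 3 had pb, Dfd and Antp (3 of 5, against 45.2%). The combined list had pb and Antp (2 of 5, against 45.5%). No Hox gene had such a summit in all 3 libraries, and Scr had none in any. The relaxed lists also hold weak calls, and the combined list is labelled as peaks and background. The authors' −log10 q-value, which is low for weak calls, goes down to 0.0177 in replicate 3, against 2.45 in the IDR list. At the library summits counted here it ran from 0.114 (Antp, replicate 3) to 2.46 (Dfd, replicate 2). For lab in replicate 2 it was 0.177. A summit with so low a value is not shown to be binding.

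At Dfd the libraries gave nearly the same place, and the threshold falls through it. The nearest summit was 561 bp upstream of the start in replicate 1, 429 bp in replicate 2, 443 bp in replicate 3 and 512 bp in the combined list. These peaks ranked 6155, 6754 and 7762 in replicates 1, 2 and 3, outside the 5190 strongest of each library.
At the start site of lab nearer its 3′ end, position 6663454, the nearest summit was 1113 bp away in replicate 1, 323 bp in replicate 2 and 571 bp in replicate 3. At the other start site of lab, 6678590, replicate 2 alone came close, with a summit 36 bp away, against 1576 bp in replicate 1 and 5246 bp in replicate 3.
For pb the distances were 9829 bp in replicate 1, 221 bp in replicate 2 and 472 bp in replicate 3, so replicate 1 stands apart there. Antp has 3 start sites, and the one nearest its 3′ end, 6932840, had the nearest summits, 423 bp away in replicate 1, 1528 bp in replicate 2 and 254 bp in replicate 3. The start site of Antp farthest upstream, 6999228, had its nearest summit 8421 bp away in replicate 2 and farther away in every other list, up to 25758 bp in the IDR list. Scr was the most distant of the 5 genes in the IDR list, in the combined list, in replicate 2 and in replicate 3, at 3009 bp in replicate 2 and 1623 bp in replicate 3, while in replicate 1 it lay at 4452 bp and pb was farther.

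**Figure D1:**
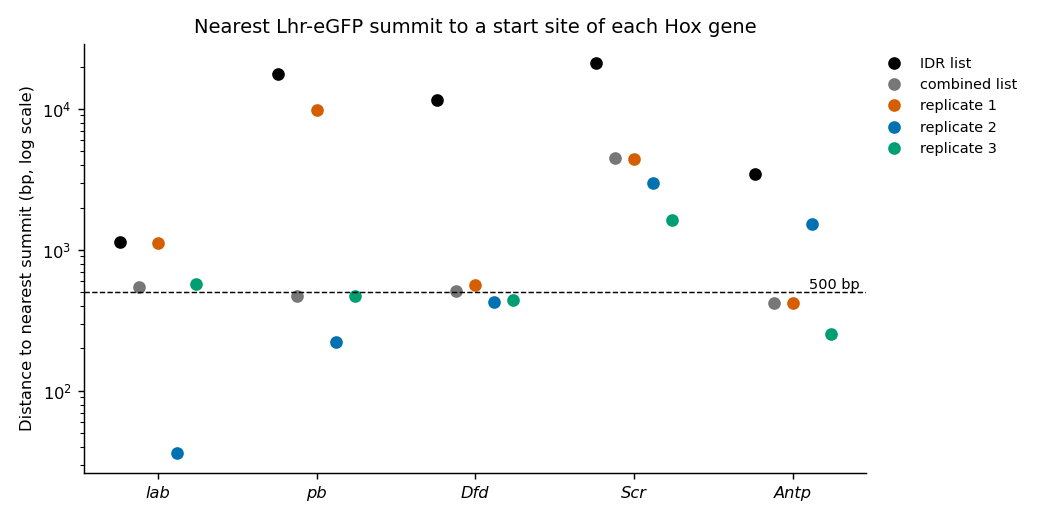
Distance in bp, on a log scale, from the closest start site of each Hox gene to the nearest Lhr-eGFP summit, in the IDR list, the combined list and the 3 replicate libraries. The dashed line marks 500 bp: all 5 IDR points lie above it, from 1141 bp for lab to 21033 bp for Scr, and no gene has all 3 library points below it.

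Inside the genes the picture was different. Summits over 500 bp from any annotated start site lay within lab, pb and Antp in the IDR list, which is 3 of 5 Hox genes. Of the 1873 protein-coding genes at least as long as Dfd, the shortest member, 29.7% had one. This share is not matched for length above that bound, and a longer gene has more room for such a summit. In the relaxed lists such summits are common in long genes. Replicate 1 had them in 5 of 5 members, where 79.7% of long genes did, replicate 2 in 5 of 5, against 76.2%, replicate 3 in 4 of 5, against 76.2%, and the combined list in 3 of 5, against 72.8%. Read against those shares, the relaxed lists do not set the 5 genes apart. The number per length in the IDR list was 10 summits in the bodies of the 5 genes together, or 55.7 per Mb, against 16.2 per Mb over the bodies of all long genes, members included, with start sites left out in both. Of the 10, 6 were in Antp, 3 in lab and 1 in pb.

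Along the complex, lab and the 20 kb beyond it were the densest on average over the libraries. Dfd, Scr and the 20 kb beyond Antp were the emptiest on average. With each library cut to the 18934 strongest peaks, the length of the shortest list, lab held 7 summits in replicate 1, 9 in replicate 2 and 6 in replicate 3, or 427 per Mb on average, where the rest of 3R had 120 ± 3.16 per Mb (SD, n = 3). Antp held 19, 14 and 12 summits in replicates 1, 2 and 3, or 146 per Mb, and pb held 3, 4 and 4, or 107 per Mb. Scr held 1 in each library, or 37.2 per Mb. Dfd held 2 in replicate 1 and 0 in the other 2 libraries. In replicate 1 that is 189 per Mb, against 185 per Mb in Antp and 117 per Mb in the rest of 3R. The libraries disagreed most on the stretch between Dfd and Scr, which holds the microRNA gene mir-10. It had 3 summits in replicate 1, 10 in replicate 2 and 1 in replicate 3, a mean of 4.67 ± 4.73 (SD, n = 3), with replicate 2 far above the other libraries. The 20 kb beyond Antp held 0, 0 and 2 summits.

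**Figure D2:**
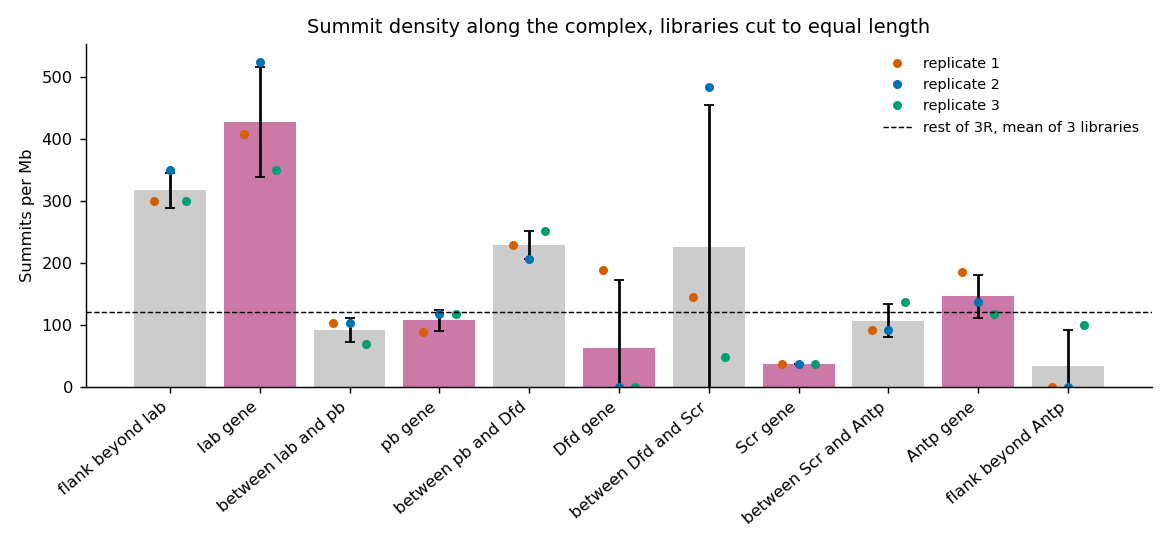
Summits per Mb in 11 consecutive stretches of the interval, with Hox genes in pink and the sequence between and beside them in grey. Bars are means of the 3 libraries cut to equal length, error bars are SD (n = 3), points are the libraries, and the dashed line is the mean of the rest of 3R, which lab exceeds and Scr falls short of in every library.

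The 21 IDR summits fall into 2 kinds, those at start sites of other genes and those far from any. At start sites, within 500 bp, lay 6 of 21 (28.6%), against 64.0% of all 5190 IDR summits. The start sites belong to 5 of the 18 other protein-coding genes counted in the interval, near the 29.2% of all protein-coding genes with such a summit. The 5 are Taf1, CG1307, twr and agt, all beyond lab, and Ama between pb and Dfd. Taf1 encodes a subunit of the general transcription factor TFIID, agt a DNA repair alkyltransferase and Ama a secreted cell adhesion protein. The 8 cuticle protein genes between lab and pb (Edg84A and the Ccp84A cluster) had no start site summit in the IDR list or in any of the 3 libraries. Of all protein-coding genes 29.2% had one in the IDR list, and 42.6%, 54.5% and 45.2% in replicates 1, 2 and 3. From lab to Antp without the flanks, 2 of 17 IDR summits (11.8%) were at a start site, both at Ama, 10 were in introns, 4 were intergenic and 1 was in the 3′ UTR of a transcript of Antp.

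**Figure D3:**
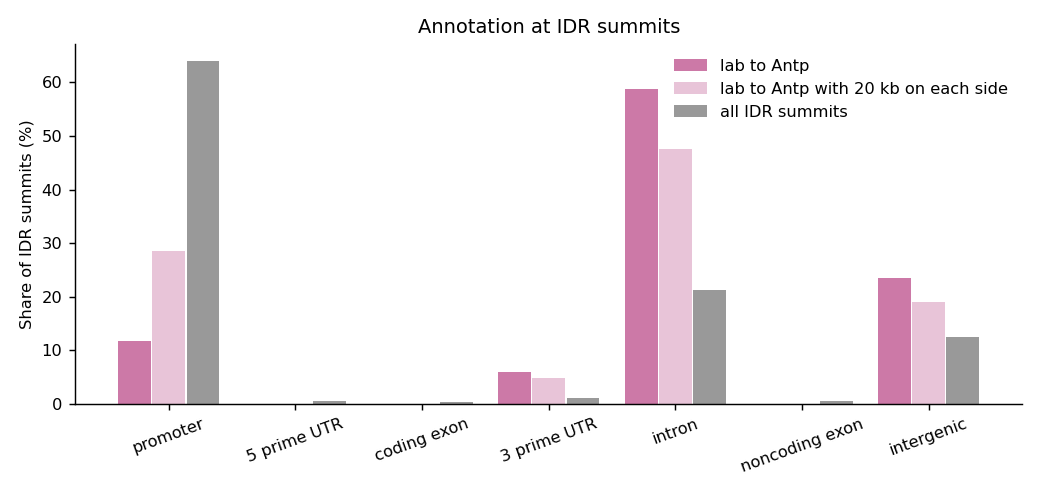
Share in % of IDR summits by annotation, for the sequence from lab to Antp (17 summits), for the same with 20 kb on each side (21 summits) and for all 5190 IDR summits. Start site summits make up 11.8%, 28.6% and 64.0% in that order, and introns 58.8%, 47.6% and 21.3%.

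Taf1 had the strongest IDR summit counted in the interval. Its summit, 56 bp upstream of the start, had a signal of 663 and rank 581, and stood at 2.29%, 1.5% and 4.27% from the top in replicates 1, 2 and 3. The summit 59 bp upstream of agt had rank 965 and stood at 5.02%, 1.45% and 9.65%. Both are high in every library. CG1307 and twr are divergent neighbours with a summit each, 227 bp apart, at ranks 3717 and 5102. Beside Ama a pair of summits, 200 bp apart, had ranks 831 and 1301 and stood at 3.69%, 2.08% and 5.42%, and at 5.88%, 3.12% and 15.9%, in replicates 1, 2 and 3. The lncRNA gene CR45593 starts in the same place, so that the summits are not assigned to either gene.

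In lab the 3 IDR summits lay together, within 2855 bp, in the intron between the start sites. The strongest, at position 6665476 and shown above, had a signal of 301 and rank 2671, and stood at 8.22%, 13.3% and 17.2% in replicates 1, 2 and 3. The summit at 6667450 ranked 3001 and stood at 16.2%, 5.75% and 23.8%, and the summit at 6664595 ranked 5030, close to the end of the list, at 16.7%, 18.2% and 30.6%. All 3 were found in every library, and replicate 3, the shortest list, placed each of them lowest by percentile. By rank, replicate 2 placed the strongest lowest, at 3982, against 1858 in replicate 1 and 3249 in replicate 3.

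The summit in pb had the smallest spread in standing between libraries of the 20 counted summits found in all 3. It lay at position 6709050, 33013 bp downstream of the start site and 1250 bp from the 3′ end of the gene, with a signal of 540 and rank 937. It stood at 4.99%, 3.50% and 3.64% in replicates 1, 2 and 3, a mean of 4.04% ± 0.825 (SD, n = 3). The 3 library summits were within 19 bp of each other. A weaker summit lay 2534 bp from it, in the sequence between lab and pb at 6706516, with rank 4448. Replicate 3 placed that one at 44.2% where replicates 1 and 2 placed it at 16.1% and 13.0%. The nearest coding start site is that of Ccp84Aa for both, 4966 bp from the summit in pb and 2432 bp from the weaker one.

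Dfd and Scr had IDR summits only outside the transcribed sequence. The summit at 6780242, in intergenic sequence 11594 bp upstream of Dfd, had a signal of 391 and rank 1743 and stood at 8.66%, 5.50% and 9.03% in replicates 1, 2 and 3. The summit at 6806894, between Dfd and Scr, was 2688 bp from the start of mir-10, had rank 1844 and stood at 12.8%, 7.81% and 8.14%. Both were within the strongest 12.8% of every library. Between Scr and Antp, the intergenic summit at 6871014 lay 21033 bp upstream of Scr with rank 3723, at 18.7%, 14.1% and 16.8%. The summit at 6881811, in an intron of the lncRNA gene CR44931, had rank 2855, at 10.01%, 15.5% and 14.5%. The nearest coding gene by start site is ftz for both, 6690 bp from the first and 17487 bp from the second.

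Antp held 6 IDR summits, spread over 70.0 kb of its 103 kb, and 4 of them lay within 9.12 kb toward its 3′ end. The strongest, at 6908263, had a signal of 575 and rank 833 and stood at 5.70%, 4.90% and 2.56% in replicates 1, 2 and 3. It is annotated as the 3′ UTR of an Antp transcript, 12010 bp from the 3′ end of the gene. The next, at 6912353 and shown above, had a signal of 497 and rank 1107 and stood at 5.85%, 5.37% and 3.73%. Replicate 3, which placed all summits of lab lowest by percentile, placed both of these highest. Another summit, at 6903436, ranked 2733 and stood at 10.2%, 9.43% and 16.6%.

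The remaining Antp summits were less alike between libraries. The summit at 6912555 lies 202 bp from the stronger one at 6912353. It stood at 17.1% in replicate 1 and 41.0% in replicate 2, and replicate 3 had no summit within 100 bp of it, the single such case of the 21. The summit at 6936323, 3483 bp upstream of the start site at 6932840, had rank 4071 and stood at 13.0%, 24.8% and 22.9%. The summit at 6973470, 15100 bp upstream of the start site at 6958370, ranked 4727 and rested on 2 libraries: it stood at 12.7% in replicate 2 and 15.0% in replicate 3, but at 92.5% in replicate 1, near the bottom of that list.

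**Figure D4:**
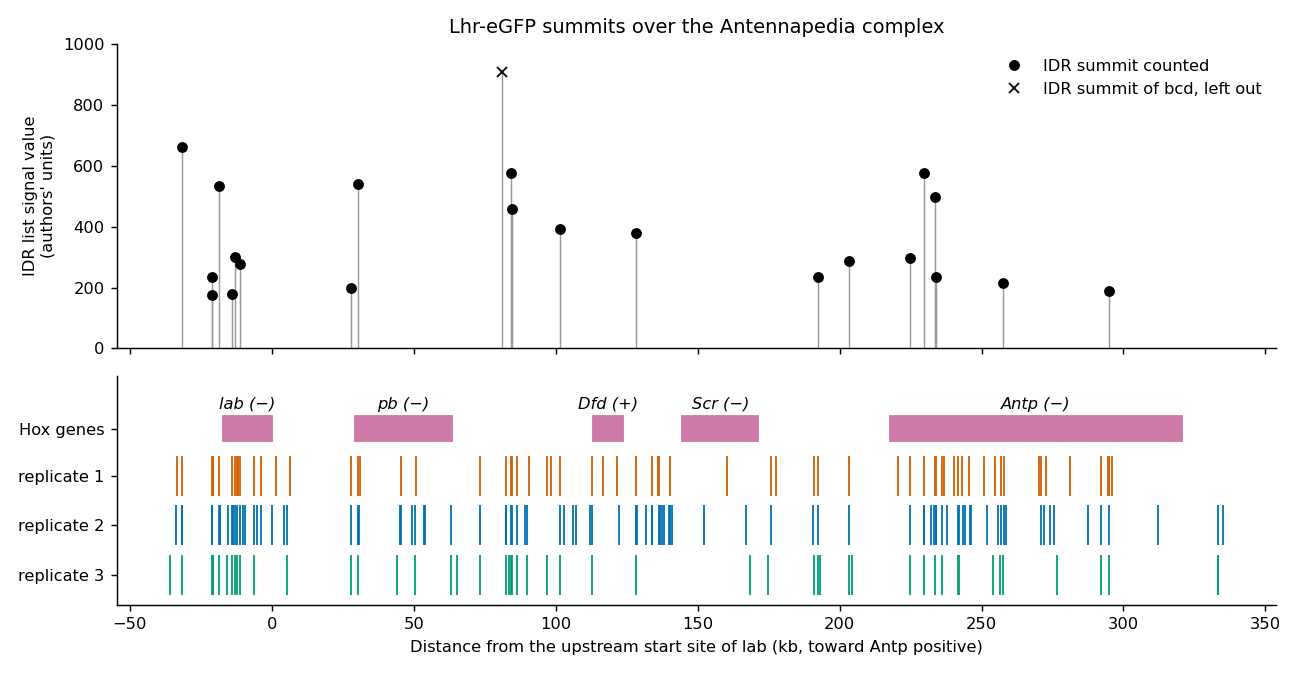
Upper panel: signal value in the IDR list, in the authors' units, of each summit against distance in kb from the upstream start site of lab, with the summit of bcd that was left out as a cross. Lower panel: the 5 Hox genes with their strands and every counted summit of the 3 relaxed library lists; IDR summits are absent from Dfd and Scr and from the 20 kb beyond Antp.

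**Figure D5:**
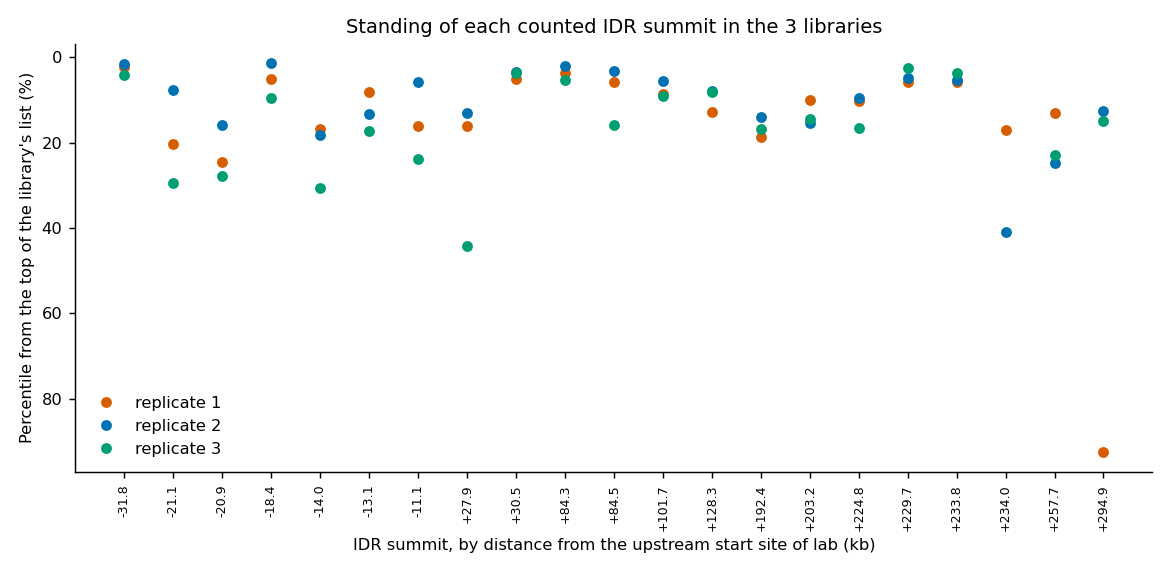
Percentile from the top of each library's list, in %, for the library summit within 100 bp of each of the 21 counted IDR summits, ordered by distance in kb from the upstream start site of lab. Of the 62 points, 4 lie beyond 30%, the summit at +294.9 kb in Antp stands at 92.5% in replicate 1, and the summit at +234.0 kb has no point for replicate 3.

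Of the 21 IDR summits, 20 (95.2%) had a summit of all 3 libraries within 100 bp, against 88.0% of all IDR summits. The library summits of these 20 places spread over 11 to 73 bp, with a median of 33.5 bp. Without the IDR list, 28 places in the interval had a summit of every library within 100 bp, counted from the 51 summits of replicate 3. That is 54.9% of them, against 38.6% of the 18934 summits of replicate 3 as a whole. The IDR list held 20 of the 28. The other 8 were 2 in lab, 3 between pb and Dfd and 3 in Antp. Position 6914517 in an Antp intron was the most exactly placed of these 8, with library summits 5 bp apart that stood at 20.7%, 16.3% and 46.3% in replicates 1, 2 and 3. Dfd and Scr held none of the 28.

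Counted over its whole length, the interval had more IDR summits than the rest of the arm, 56.8 per Mb against 36.8 per Mb, a ratio of 1.54. In the libraries cut to the shortest list the ratio was 1.34 in replicate 1, 1.38 in replicate 2 and 1.12 in replicate 3, a mean of 1.28 ± 0.142 (SD, n = 3). The excess is uneven and lies on the side away from start sites. Start site summits were sparser in the interval than in the rest of 3R, 16.2 against 24.6 per Mb in the IDR list. This density is per length of sequence and takes no account of how many start sites lie in it. By gene, 5 of the 18 other protein-coding genes had such a summit, against 29.2% of all protein-coding genes. Summits over 500 bp from any start site were denser, 40.6 against 12.2 per Mb, a ratio of 3.33. This density too is per length of all sequence. It takes no account of how much sequence lies that far from a start site. The 5190 strongest peaks of each library gave ratios of 3.12 in replicate 1, 3.83 in replicate 2 and 3.05 in replicate 3, each above 1. The ratio shrank as weaker peaks entered, to 1.73, 1.97 and 1.33 in replicates 1, 2 and 3 with the lists cut to 18934 peaks.

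Equal tiles of the arm give the same values a scale. Of 84 tiles of 378 kb along 3R, 12 held more IDR summits than the 22 of the interval with bcd, zen and ftz kept, and the tiles ran from 0 to 32 with a median of 14. For summits over 500 bp from any start site, the interval had 15. Of the 84 tiles 1 had more and 1 had as many, and the median was 4. The tiles cover the whole arm, the interval itself and the sequence near the centromere included. How much of each tile lies over 500 bp from a start site is not taken into account.

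The bithorax complex, with Ubx, abd-A and Abd-B, is the other Hox cluster of the fly and lies on the same arm. Its interval, chr3R:16636623-16992236, was drawn with the same 20 kb on each side. The Antennapedia interval had 56.8 IDR summits per Mb and the bithorax interval, with 16 summits, had 45.0 per Mb, a ratio of 1.26. In the libraries cut to equal length, that ratio was 1.19, 1.13 and 1.00 in replicates 1, 2 and 3, a mean of 1.11 ± 0.0951 (SD, n = 3). Start site summits were 6 of 21 IDR summits in the Antennapedia interval and 3 of 16 in the bithorax interval. Away from start sites lay 15 in the 369 kb counted here and 13 in the 356 kb of the bithorax interval. Both counts exceed the median of 4 per tile of 3R, so the excess of such summits is not particular to the Antennapedia complex. Among the 5190 strongest peaks of replicates 1, 2 and 3 they numbered 15, 15 and 13 here and 15, 10 and 9 there. Like the 5 Antennapedia complex genes, Ubx, abd-A and Abd-B had no IDR summit that near to a start site (0 of 3). In the relaxed lists 1 of the 3 had one in replicate 2 and none had one in replicates 1 and 3.

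Other genes of the Hox system were read in the same way, against the 29.2% of all protein-coding genes with an IDR summit at a start site. The listed cofactors and segmentation regulators had none: 0 of 5 Hox cofactors (exd, hth, tsh, disco and disco-r) and 0 of 8 segmentation regulators (hb, Kr, kni, gt, tll, cad, eve and ftz). In the libraries the cofactors had 1, 3 and 2, and the segmentation regulators 2, 4 and 1, of these in replicates 1, 2 and 3, where 42.6%, 54.5% and 45.2% of all protein-coding genes had one. The other homeobox and maternal genes of the Antennapedia complex (bcd, zen, zen2 and ftz) had an IDR summit at a start site in 1 of 4 cases. It was at bcd, 211 bp from the start, at rank 227. Of 5 Hox target genes, 2 had an IDR summit there, fkh, a forkhead factor of the salivary gland under Scr, at rank 468, and CrebA, a secretory pathway regulator, at rank 3860.

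Genes for proteins that maintain Hox expression states more often had a summit than the 29.2% of all genes. Polycomb group genes had an IDR summit at a start site in 9 of 18 cases, with ph-p at rank 24, pho at rank 268 and Pc at rank 501. The tandem copies ph-p and ph-d are near-identical, so reads could be split between them and their values are uncertain. Trithorax group genes had one in 9 of 14 cases (64.3%), with trx at rank 206, fs(1)h at rank 241 and brm at rank 370. In the relaxed lists of replicates 1, 2 and 3, Polycomb group genes had a start site summit in 13, 17 and 13 of 18 cases and trithorax group genes in 11, 13 and 12 of 14 cases, where 42.6%, 54.5% and 45.2% of all protein-coding genes had one. No test of these lists was made.

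Short sequence words were looked up on both strands within 100 bp of each IDR summit, as exact matches. The word of the promoter factor M1BP, GGTCACACT, was in 2 of 21 windows (9.52%), against 6.59% of all IDR summits, and both were promoter summits beyond lab, at Taf1 and agt. The DNA replication related element TATCGATA, the GAGA factor word GAGAGAG and the Zelda word CAGGTAG were in 0 of 21, against 7.21%, 2.70% and 0.751% of all IDR summits. CGATA, a word of the insulator protein BEAF-32 that lies within TATCGATA, was in 8 of 21 (38.1%), against 37.8%. GCCAT, the core of the Polycomb group factor Pho, was in 7 of 21 (33.3%), against 28.7%. The homeodomain core TAATTA was in 2 of 21 (9.52%), against 15.8%, and the Hox and Exd word TGATNNAT in 3 of 21 (14.3%), against 13.2%. The TATA box word TATAAAA was in 4 of 21 (19.0%), against 15.9%. Of the summits over 500 bp from any start site, CGATA was in 6 of 15, against 24.0% of all such IDR summits. Within 50 bp it was in 2, against 13.9%. Within 100 bp, GCCAT was in 3 (against 28.4%), TAATTA in 1 (14.7%), TGATNNAT in 1 (13.3%) and TATAAAA in 4 (15.0%). GGTCACACT, TATCGATA, GAGAGAG and CAGGTAG were in 0 of these 15, against 0.482%, 1.93%, 3.37% and 1.12%.
Among the windows shown above, those in lab, in pb, beside Ama and in Antp hold GCCAT, those in pb, beside Ama and on either side of Scr hold CGATA, and the window between lab and pb holds none of the words. With 21 windows these shares are counts of a few matches. A match is only the presence of these letters.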

How the data were processed

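Peak lists in narrowPeak format for 3 Lhr-eGFP ChIP-seq libraries were used on dm6. Per the deposited listings, each relaxed list was made from a library's alignment and a control alignment shared by all 3, the combined list from all 3 alignments, and the IDR list from these. Not given in the sources used here: the aligner, the peak caller and the cut-off. The deposited signal is the authors' enrichment value per peak, on its own scale in each list. The deposited −log10 q-value of the authors ties at its maximum and was not used for ranking. Lists hold no counts, so depth is unknown.

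Summits (peak start plus offset) were placed on Ensembl release 115 gene models of Release 6, transposons left out, with Python 3.11.15, numpy 2.4.6 and pandas 2.3.3. A start site counted as bound with a summit within 500 bp, and library summits within 100 bp as matched. Distance functions were tested on simulated summits. All 5 Hox genes, the host and nearest coding gene of each IDR summit, and up to 3 bound genes per list by signal were named. The members, lists and words were chosen with earlier results of these data known. The Polycomb group name calypso matched no gene. No test of chance was made. Positions on dm3 were not used.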

Additional observations from a re-analysis of the deposited data

How the results depend on the processing

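Of 10 alternatives, 7 left the number of Hox genes with an IDR summit at a start site at 0. Those of the 7 that narrowed the window or kept only part of the IDR list could give nothing but 0. They therefore do not test that number. The 7 also include a window wider than 500 bp, which could have raised the number and did not. The other 3 gave 2 with a window of 5000 bp (lab and Antp), 2 with the combined relaxed list, and 3 (pb, Dfd and Antp) when a summit in at least 2 of the 3 libraries was asked for. The 21 summits of the interval fell to 9 in the upper 50% of the IDR list by signal and numbered 63 in the combined list. With summits within 250 bp merged they numbered 18, so not all of the 21 need be separate places. The density ratio of 1.54 stayed above 1 in all 13 alternatives. It was 1.32 with the upper 50% of the list, 1.34 with the combined list, 1.40 with no flanks and 1.32 with 50 kb flanks. Against 3R outside pericentric sequence it was 1.37. With summits within 250 bp merged it was 1.40, and without the flank beyond lab it was 1.32. Setting each replicate aside in turn and keeping the IDR summits found in the other 2 gave 1.60 to 1.71. The IDR list was still made from all 3 libraries, so these values are not free of the replicate set aside. The ratio of 3.33 for summits away from start sites was 2.98 with the upper 50% of the list and 1.75 with the combined list. It was 3.73 with no flanks and 2.86 with 50 kb flanks. Against the arms 2L, 2R, 3L, 3R and X it was 2.94, and against 3R outside pericentric sequence 2.99. With the same filter of the IDR list by the other 2 libraries, it was 3.38 to 3.66. The 28 places in all 3 libraries numbered 14 when each library was cut to its 5190 strongest peaks. Asking for only 2 of the 3 libraries, a looser demand, gave 29 to 37. Within 50 and 200 bp of the summit, CGATA was in 4 (19.0%) and 13 (61.9%) of 21 windows, against 23.6% and 54.0% of all IDR summits. GCCAT was in 5 (23.8%) and 15 (71.4%), against 16.5% and 49.6%. TAATTA was in 0 and 9 (42.9%), against 8.34% and 28.3%, so its direction changed with the window. TGATNNAT was in 2 (9.52%) and 5 (23.8%), against 6.78% and 24.4%. GGTCACACT was in 0 and 3 (14.3%), against 3.43% and 9.50%. The merged summits, the ratio without the flank beyond lab, the ratio away from start sites and the count in 2 of 3 libraries were chosen after seeing the data. The cause of these changes was not tested. Depth is unknown, so a weak place absent from a library's list is not shown to lack the protein. The authors' lists share 1 control alignment. No paired analysis was possible because there is 1 group and no result comes from a test.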

Other observations

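On reading the windows of the 21 IDR summits, the word ACTGCTT was seen in 4 of them, those at 6780242 upstream of Dfd, 6806894 beside mir-10, 6871014 upstream of Scr and 6908263 in Antp. All 4 lie over 500 bp from any start site, so they are 4 of the 15 such summits, where 5.35% of all IDR summits over 500 bp from a start site hold the word. Of all IDR summits, 4.57% do. The word was chosen from these windows, so the counts are a description and no test was made. In the relaxed lists, whose summits overlap with those of the IDR list, the word was in 6 of 63 interval summits in the combined list, against 3.20% of that list. It was in 4 of 66 in replicate 1, against 3.11%, in 8 of 94 in replicate 2, against 2.93%, and in 5 of 51 in replicate 3, against 3.19%. The window at 6908263 holds 4 copies, 3 on the plus strand and 1 on the minus strand, and lies in a UTR, so it is not printed. The other 3 are shown 5′ to 3′ on dm6, with the word in capitals, to let its surroundings be compared.
upstream of Dfd, chr3R:6780179-6780219, minus strand: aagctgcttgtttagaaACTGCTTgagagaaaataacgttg
beside mir-10, chr3R:6806958-6806998, plus strand: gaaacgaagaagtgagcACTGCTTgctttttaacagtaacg
upstream of Scr, chr3R:6871013-6871066, plus strand: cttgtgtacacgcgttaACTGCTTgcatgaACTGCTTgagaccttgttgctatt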
